A study of Mus musculus with 4 samples.

Results

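Ihh/Panx3 chondrocytes of the long bone growth plate region were followed in mice with and without Lats2 in endothelial cells (ECs). The cells were chosen by their own transcripts, as barcodes with Col2a1 at 50 or more and Col10a1 under 20 UMIs (unique molecular identifiers, counted transcript molecules) per 10000 UMIs, at least 2 UMIs of Ihh and Panx3 together, no UMI of Cdh5 or Ptprc and at most 2 of Mki67 and Top2a together. This rule found 1437 cells among 24739 barcodes that held at least 1000 UMIs and 800 genes, under 15% mitochondrial and under 5% hemoglobin UMIs. The 2 mutant libraries held 327 and 347 of them and the 2 control libraries 377 and 386. The levels of Ihh, Panx3, Col2a1, Col10a1, Cdh5, Ptprc, Mki67 and Top2a chose the cells and are given below as a description only.

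The libraries were droplet-based scRNA-seq of mouse long bone at 12 weeks of age. Mutants, labelled Lats2iECKO, carried loxP-flanked Lats2 and the tamoxifen-inducible Cdh5-CreERT2 transgene, so that recombination was driven by the Cdh5 promoter, which is active in ECs. Controls were Cre-negative littermates, and both genotypes received tamoxifen as juveniles, in a C57/BL6 genetic background. The metaphysis of femur and tibia was dissected and digested, and hematopoietic cells were depleted with lineage, CD45 and CD117 antibodies before loading, so that the share of any cell type also depends on the dissection and the digestion.

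In the growth plate, chondrocytes leave the cell cycle, enlarge and become hypertrophic before the cartilage is replaced by bone. Indian hedgehog (Ihh), secreted at this transition, acts through its receptor Patched (Ptch1) and Smoothened (Smo), and together with parathyroid hormone-related protein (Pthlh) and its receptor (Pth1r) forms a feedback loop that sets when chondrocytes mature. Panx3, a channel-forming pannexin, and Col10a1, the collagen of hypertrophic cartilage, mark successive stages of this maturation.

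The chosen cells were somewhat deeper in mutants than in controls. The libraries held 69636600 and 78953446 UMIs in mutants and 83453507 and 85899079 in controls, and the median Ihh/Panx3 chondrocyte held 18505 and 18716 UMIs in mutants against 16657 and 17206.5 in controls, with 3.91% and 3.96% mitochondrial UMIs against 4.01% and 4.16%, and neither measure overlapped between the genotypes. Counts of changed genes in cells thinned to 3000 UMIs and chosen again are given in the closing section, and the part of depth in the differences was not tested further. No barcode of the chosen cells was shared between libraries, and 6 to 16 filtered barcodes were. The Cre-ERT2 transcript reached 54.6 and 48.9 CPM (UMIs of a gene scaled to a common total of the summed cells) in Cdh5/Pecam1 barcodes of mutants and 0.989 and 0.869 CPM in those of controls, and it was at 0, 0.152, 0 and 0 CPM in the Ihh/Panx3 chondrocytes, in the order of the 2 mutant and the 2 control libraries that is kept below. Lats2 itself was at 33.9, 38.9, 48.0 and 41.9 CPM in Ihh/Panx3 chondrocytes, and the deleted part was not resolved by these counts. In these cells Ddx3y, a Y-linked gene, was at 61.6 to 69.6 CPM and Xist at 0 to 0.156 CPM in the 4 libraries. Of other Y-linked genes, Kdm5d was at 10.1, 11.3, 16.0 and 18.7 CPM (edgeR adjusted p = 0.00737) and Uty at 48.4, 48.9, 72.4 and 61.0 CPM (adjusted p = 0.0130), lower in mutants, and neither passed in DESeq2 or in members without a Col10a1 UMI.

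The chosen cells made up a similar part of all filtered barcodes in both genotypes and a smaller part of the chondrocytes in mutants. They were 6.37% (95% Clopper-Pearson interval 5.72 to 7.07) and 5.88% (5.30 to 6.51) of the filtered barcodes in mutants, and 5.49% (4.96 to 6.05) and 5.64% (5.11 to 6.22) in controls. The intervals of the 4 libraries overlapped, and with Col2a1 set at 100 per 10000 UMIs the order of the genotypes turned, with a difference of -0.0510 percentage points. Among Col2a1-high chondrocytes, which were 27.7% ± 0.787 (SD, n = 2) of filtered barcodes in mutants and 17.3% ± 0.0415 in controls, the Ihh/Panx3 chondrocytes were 22.5% (20.4 to 24.8) and 21.6% (19.7 to 23.8) in mutants and 31.7% (29.1 to 34.5) and 32.5% (29.9 to 35.3) in controls. The mean share was 10.0 percentage points lower in mutants, and the libraries of the genotypes did not overlap. With 2 libraries against 2, the exact two-sided permutation test cannot give less than p = 0.333, which it gave here. With every cell thinned to 3000 UMIs, the mean shares of Col2a1-high chondrocytes were 10.4% and 15.3%. All these shares leave out cells past the Col10a1 limit. Ihh/Panx3 cells of any Col10a1 level numbered 668, 675, 495 and 503 among 1452, 1603, 1188 and 1187 Col2a1-high chondrocytes, mutant libraries first. The lower share of the chosen cells thus rests on the Col10a1 limit of the rule. Shares are of dissociated cells, and fewer cells of a type cannot be told apart from more cells of the others.

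The mutants instead held more cells past the Col10a1 limit. When Ihh/Panx3 cells of any Col10a1 level were counted, 51.1% (47.2 to 54.9) and 48.6% (44.8 to 52.4) of them were at or above the Col10a1 limit in mutants and 23.8% (20.1 to 27.8) and 23.3% (19.6 to 27.2) in controls. The means, 49.8% ± 1.74 and 23.6% ± 0.409 (SD, n = 2 each), differed by 26.3 percentage points, which describes a level that the rule used. In the thinned cells, the mean shares were 60.9% and 32.0%. Few cells lay near the limit: 22, 28, 11 and 11 cells were at 10 to 20 Col10a1 UMIs per 10000, just inside, and 15, 24, 6 and 10 at 20 to 30, just outside.

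**Figure D1:**
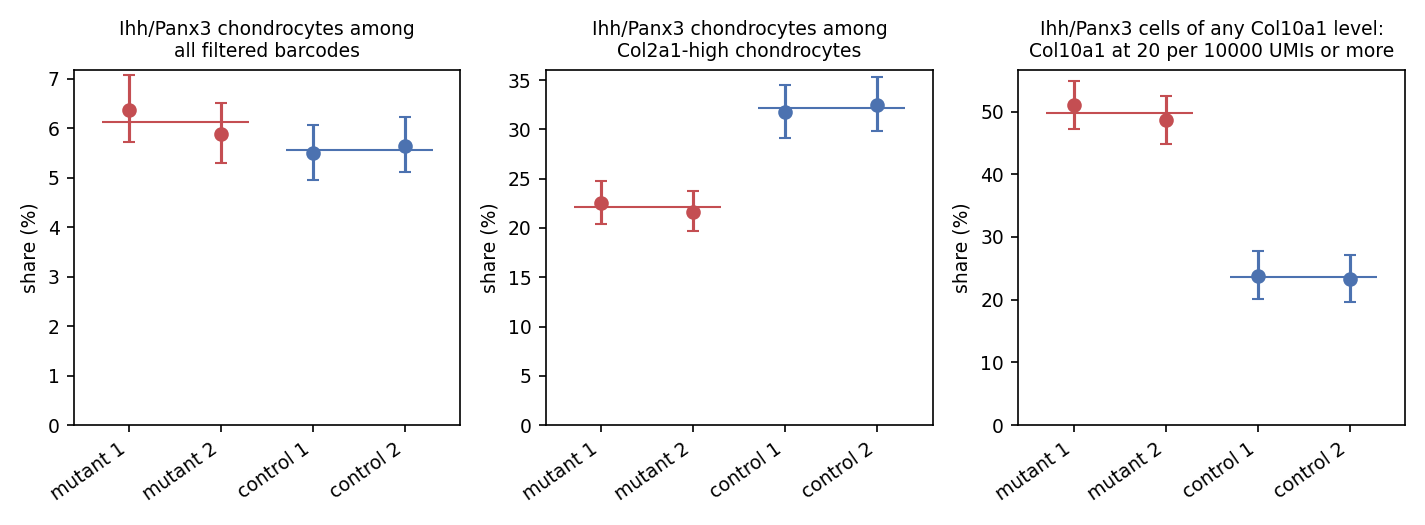
Shares (%) per library of Ihh/Panx3 chondrocytes among all filtered barcodes (left) and among Col2a1-high chondrocytes (middle), and of Ihh/Panx3 cells of any Col10a1 level that were at 20 or more Col10a1 UMIs per 10000 (right); bars are 95% Clopper-Pearson intervals and lines the genotype means. The mutant libraries sat at 21.6% and 22.5% in the middle panel, below the controls at 31.7% and 32.5%, and above them in the right panel.

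Panx3 rather than Ihh brought most cells in. Panx3 had a UMI in 93.6% and 91.6% of the chosen cells in mutants and in 98.1% and 99.7% in controls, while Ihh had one in 46.2% and 45.2% against 36.6% and 34.5%. Cells with Ihh UMIs only numbered 21 and 29 in mutants and 7 and 1 in controls, and those with both genes 130, 128, 131 and 132. In Cdh5/Pecam1 barcodes, which should lack both genes and have a median of 6280.5 to 7802 UMIs, Ihh had a UMI in 0.416% to 1.70% and Panx3 in 1.01% to 1.49% of cells. Thinned to 3000 UMIs, the members had an Ihh UMI in 26.5%, 26.3%, 20.7% and 18.1% and a Panx3 UMI in 60.1%, 62.4%, 71.9% and 68.2% of cells. The summed count of 2 UMIs was met exactly or by less than 1 more in 41, 44, 59 and 55 members, and 84, 99, 81 and 79 further cells lay just outside with 1 to under 2 UMIs. The median Col2a1 level of the members was 302 and 295 UMIs per 10000 in mutants and 438 and 452 in controls, and 121, 132, 261 and 262 of them had no Col10a1 UMI. Thinned to 3000 UMIs, members had a Col10a1 UMI in 27.7%, 22.8%, 11.2% and 12.6% of cells and Cdh5/Pecam1 barcodes, which should lack it, in 17.6%, 18.8%, 7.12% and 8.39%. The background of Col10a1 was thus higher in mutants as well, and it bears on which members count as free of Col10a1 in the comparisons below.

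Of the 5 marker genes of the label, Panx3 and Ihh chose the cells and their levels are a description. Col10a1-high chondrocytes were filtered barcodes at or above the Col10a1 limit, and unlike the members they needed no Col2a1 minimum and no Ihh or Panx3 UMI. Panx3, at 445, 407, 519 and 539 CPM in the members, was lower in Col10a1-high chondrocytes in every library, at 130, 139, 351 and 315 CPM. Ihh went the other way, with 172, 185, 162 and 154 CPM in the members and 723, 694, 737 and 723 CPM in Col10a1-high chondrocytes. F13a1, the A subunit of coagulation factor XIII, a transglutaminase, and Matn1, a cartilage matrilin, were likewise higher in Col10a1-high cells of all 4 libraries, F13a1 at 3140 and 2575 CPM there against 366 and 358 CPM in the members of controls. For Matn1 the order depended on the measure. At 3000 UMIs it had a UMI in 7.48% and 6.94% of members and in 6.42% and 5.38% of Col10a1-high cells of mutants. In controls these shares were 11.4% and 9.97% against 24.7% and 21.8%. Pcolce2, an enhancer of procollagen processing, was higher in the members than in Col10a1-high cells in mutants, at 3083 and 2461 against 1268 and 1155 CPM, and lower in controls, at 2184 and 2324 against 2737 and 2783 CPM. At 3000 UMIs Pcolce2 had a UMI in more members than Col10a1-high cells of controls too, in 95.4% and 95.01% against 88% and 80.8%, so its order there also depended on the measure. The general chondrocyte genes Sox9 and Acan were at 844 to 920 and 2827 to 4092 CPM in the members, and endothelial and leukocyte marker lists summed to 17.6 to 33.4 and 3.56 to 6.12 CPM. Smooth muscle markers summed to 23.1 to 122.6 CPM in mutants and 37.0 to 47.1 CPM in controls. Fibroblast markers summed to 137 to 260 and 70.8 to 83.7 CPM, and reticular stromal markers to 110 to 172 and 390 to 393 CPM. F13a1, which the rule did not use, was above the members in Col10a1-high cells by both measures. The study keeps Ihh for its hypertrophic stage, and the cells are called here by their rule.

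**Figure D2:**
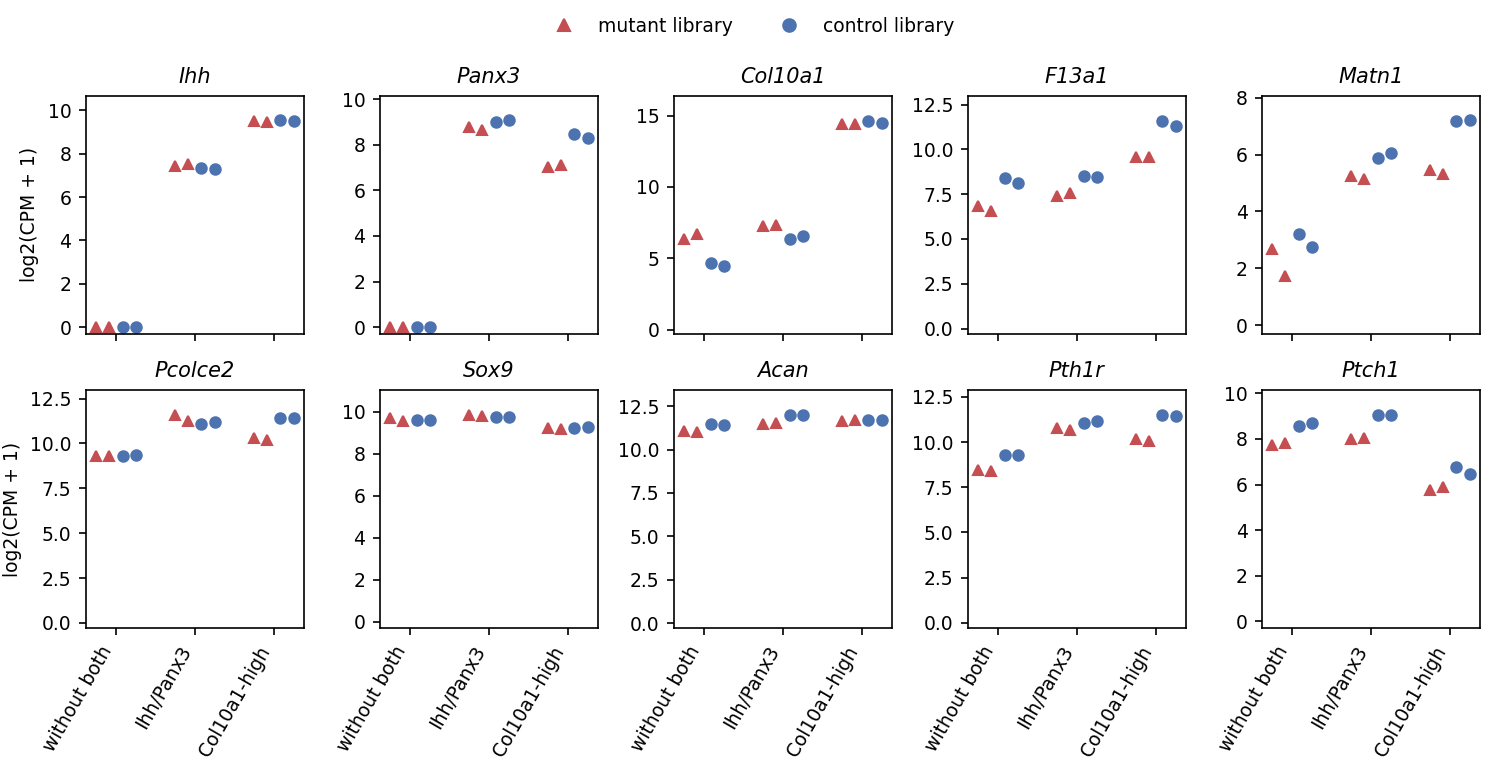
Levels as log2(CPM + 1) of 10 genes in 3 chondrocyte classes (without both Ihh and Panx3, Ihh/Panx3, Col10a1-high), with 1 point per library and mutants as triangles. Ihh, Panx3 and Col10a1 set the classes; F13a1 and Matn1 were higher in Col10a1-high cells than in Ihh/Panx3 cells in all 4 libraries.

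Several genes that the rule did not use had higher summed levels in the members than in the neighbouring classes. Over chondrocytes without Ihh and Panx3, with the same Col2a1 and Col10a1 limits, the largest ratios that had 1 sign in all 4 libraries belonged to Nrgn (mean log2 ratio 3.63), Grb14 (3.13), the inorganic pyrophosphatase Ppa1 (3.08) and Bmp8a (2.91). The others of the 15 largest were the transcription factor Mef2c (2.7), the sphingomyelinase Smpd3 (2.39), Serinc5 (2.34), Col13a1 (2.30), Rnf144a (2.26), Il17b (2.16), Wnt5b (2.12), Slc8a3 (2.12), the bone morphogenetic protein (BMP) antagonist Nog (2.08), Pak3 (2.07) and the phosphatase Alpl (2.07), which frees phosphate for mineral. Ppa1 was at 4562 to 7946 CPM in the members and at 446 to 1163 CPM in the cells without Ihh and Panx3. Over Col10a1-high chondrocytes, leading genes included Tgfbi (4.69), a secreted adhesion protein, Col12a1 (3.69), Tenm2 (3.47) and A2m (3.41), and Ppa1 was again among them (3.10). Some of these genes were found in a minority of members. Nrgn had a UMI in 22.7% of members of mutants and 34.9% of controls, Tenm2 in 21.1% and 38.8% and A2m in 8.16% and 20.6%. Ppa1 had one in 85.8% and 98.0%. Over the libraries the log2 ratio ran from 1.82 to 4.84 for Nrgn and from 1.26 to 5.94 for A2m. These ratios describe cells that were chosen by their expression and were not tested.

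The members with and without an Ihh UMI differed in the receivers of the hedgehog signal. Ptch1 was at 352, 373, 729 and 736 CPM in members without an Ihh UMI and at 139, 113, 243 and 205 CPM in those with one, and Hhip, a decoy that binds hedgehog ligands, at 38.5, 59.4, 156 and 112 against 11.5, 6.31, 15.5 and 15.2 CPM. Pth1r had the opposite order, at 1315, 1105, 1554 and 1733 CPM without and 2235, 2311, 3036 and 3100 CPM with Ihh. The order was the same in all 4 libraries for each of these genes, and it describes cells that were split by Ihh itself.

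Between genotypes, 230 of 7422 tested genes were higher and 78 lower in the Ihh/Panx3 chondrocytes of mutants. A gene was called at a Benjamini-Hochberg adjusted p of at most 0.05 in the edgeR quasi-likelihood test on UMIs summed per library together with a log2 fold change of 1 or more in either direction, which 3.10% of tested genes met upwards and 1.05% downwards. At the adjusted p alone, 1485 genes (20%) were higher and 1280 (17.2%) lower. Genes of the lists below are counted as higher or lower by the adjusted p alone, to be read against these shares. The libraries of the genotypes did not overlap for 73.3% of tested genes, so non-overlap of 2 against 2 is common here. The median log2 fold change was -0.01, and scaling by library totals in place of TMM moved it to -0.12 and the calls to 179 higher and 107 lower. The study calls the 2 libraries of a genotype biological replicates, the labels do not name the animals, and the p-values measure the spread between these libraries.

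**Figure D3:**
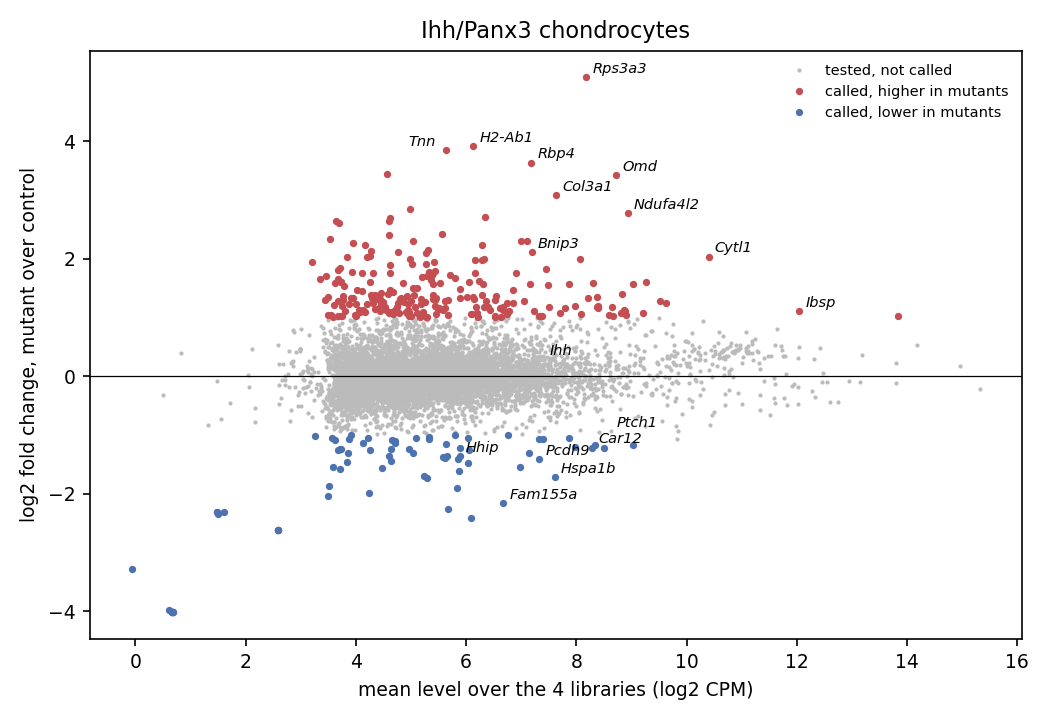
Log2 fold change (mutant over control) against mean level over the 4 libraries (log2 CPM) of the 7422 genes tested in Ihh/Panx3 chondrocytes. The 230 called genes higher in mutants are red and the 78 lower blue, and the hypoxia gene Ndufa4l2 and the small leucine-rich proteoglycan gene Omd stood among the highest of abundant genes.

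Among genes at a mean of 50 CPM or more in the higher genotype, Omd, Col3a1, Tnn and Rbp4 had some of the largest rises. Omd, which encodes osteomodulin, a keratan sulfate proteoglycan of bone, was at 754 and 785 CPM in mutants and 76.4 and 79.0 CPM in controls, a log2 fold change of 3.42 ± 0.07 (SE; adjusted p = 1.23e-14). Col3a1, a fibrillar collagen, was at 392 and 312 against 38.5 and 50.8 CPM, a log2 fold change of 3.09 ± 0.12 (adjusted p = 3.51e-11). Both mutant libraries were several times above both controls. Tnn, encoding the matrix glycoprotein tenascin-W, rose from 5.46 and 8.26 CPM in controls to 99.0 and 86.1 CPM in mutants (log2 fold change 3.86 ± 0.15), and Rbp4, a retinol carrier, from 25.3 and 21.1 to 246 and 286 CPM (3.63 ± 0.10). UMIs of these genes were found in more cells of mutants, with Omd in 73.7% against 42.7% and Col3a1 in 34.4% against 11.3%. In near-empty barcodes, which hold 1 to 100 UMIs and give the free RNA of a library, these genes were likewise higher in mutants, Rbp4 with 735 CPM against 75.8 CPM, Tnn with 29.5 against 5.01 CPM, Omd with 493 against 159 CPM and Col3a1 with 433 against 246 CPM. With free RNA subtracted, Omd, Col3a1, Tnn and Rbp4 were still called higher. The share subtracted was 2.67% to 4.8%, while other lists of marker genes gave 0.871% to 39.7%, as listed below. Members of both genotypes held Rbp4 and Col3a1 below and Tnn above the near-empty level, and Omd was above it in mutants only. The part of free RNA in these rises at higher shares was not tested.

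Further genes in the 12 largest rises were the atypical chemokine receptor Ackr3 (log2 fold change 2.85), the calcineurin regulator Rcan1 (2.7), the urokinase receptor Plaur (2.31) and the metallothionein Mt1 (2.30). The Wnt inhibitor Wif1 (2.30), which is named for its difference between chondrocyte classes, was at 198 and 252 CPM in mutants and 46.6 and 52.2 CPM in controls. H2-Ab1, a class II MHC gene, was at 126 and 136 against 10.6 and 8.11 CPM (log2 fold change 3.92 ± 0.12). Near-empty barcodes moved with it, from 5.71 CPM in those of controls to 68.8 CPM in those of mutants, and H2-Ab1 passed with free RNA subtracted. The leukocyte marker list summed to 3.56 to 6.12 CPM in the members, and its part in the result was not tested. Rps3a3, with the largest fold change (5.08 ± 0.08), is a near-identical copy of a ribosomal protein gene and its counts are uncertain, since the authors divided reads matching more than 1 gene among them by expectation maximization.

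Among genes at the same level of 50 CPM or more that fell, Fam155a and Pcdh9 are given by library. Fam155a, an auxiliary subunit of a sodium leak channel, fell from 184 and 154 CPM in controls to 40.8 and 29.4 CPM in mutants (log2 fold change -2.16 ± 0.12, edgeR adjusted p = 2.06e-09), and the protocadherin Pcdh9 from 238 and 238 to 83.4 and 81.9 CPM (-1.41 ± 0.06). For both genes the mutant libraries lay below the controls. The fructose transporter Slc2a5 (-1.91 ± 0.14), the phosphatase-like Ptprn2 (-1.73 ± 0.11), the inducible chaperone Hspa1b (-1.72 ± 0.06), the related chaperone Hsph1 (-1.41 ± 0.13) and Hdgfl2 (-1.37 ± 0.11) also fell. Itga6, at 22, 28.8, 109 and 36.8 CPM, owed its place to the first control library and did not pass without it.

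Ptch1, Hhip, Smo and Pth1r of the hedgehog and PTHrP loop were lower in mutants. Ihh (chr1:74984474-74990837, minus strand, GRCm39) was at 172 and 185 CPM in mutants and 162 and 154 CPM in controls, a fitted log2 fold change of 0.29 ± 0.06 that belongs to a gene of the rule and is given without a test. Ptch1 (chr13:63656142-63721412, minus strand), the Ihh receptor and a transcriptional target of the pathway, was at 254 and 260 CPM in mutants against 534 and 529 CPM in controls, a log2 fold change of -0.93 ± 0.06 (edgeR adjusted p = 8.03e-09). Hhip (chr8:80692480-80784658, minus strand), likewise a pathway target, was at 26 and 36.4 against 99.8 and 74.2 CPM, a log2 fold change of -1.36 ± 0.15 (adjusted p = 2.91e-06). For both genes the mutant libraries lay well below the controls, and both also passed the adjusted p with free RNA subtracted and in members with no Col10a1 UMI.

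The signal transducer Smo was at 52.8, 55.2, 79.7 and 71.1 CPM (log2 fold change -0.37 ± 0.09, adjusted p = 0.00481) and Pth1r at 1740, 1628, 2150 and 2265 CPM (-0.28 ± 0.06, adjusted p = 0.00127). Smo did not pass in DESeq2, without the first control library or in the members with an Ihh UMI. The transcription factor Gli3 was at 106.6, 106.5, 123 and 114 CPM (-0.04 ± 0.07, adjusted p = 0.708), and the inhibitor Sufu, the coreceptors Boc and Cdon and the histone deacetylase Hdac4 did not pass either. Gli1, the usual readout of the pathway, was at 6.26, 6.98, 8.89 and 10.3 CPM, found in 11% of cells of mutants and 14.3% of controls, and was too low to be tested, as were Gli2, Gas1 and the ligand Pthlh. Of the 15 genes of the hedgehog and PTHrP list, 10 were tested. Beside Ihh, which the rule used, 4 of 9 (44.4%, against 17.2% of all tested genes) were lower and none higher. Their median log2 fold change was -0.04 beside -0.01 over all tested genes. The other label genes F13a1 (-0.91 ± 0.07) and Matn1 (-0.70 ± 0.10) were lower and Pcolce2 (0.41 ± 0.08) higher in mutants, Matn1 not passing in members without a Col10a1 UMI.

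**Figure D4:**
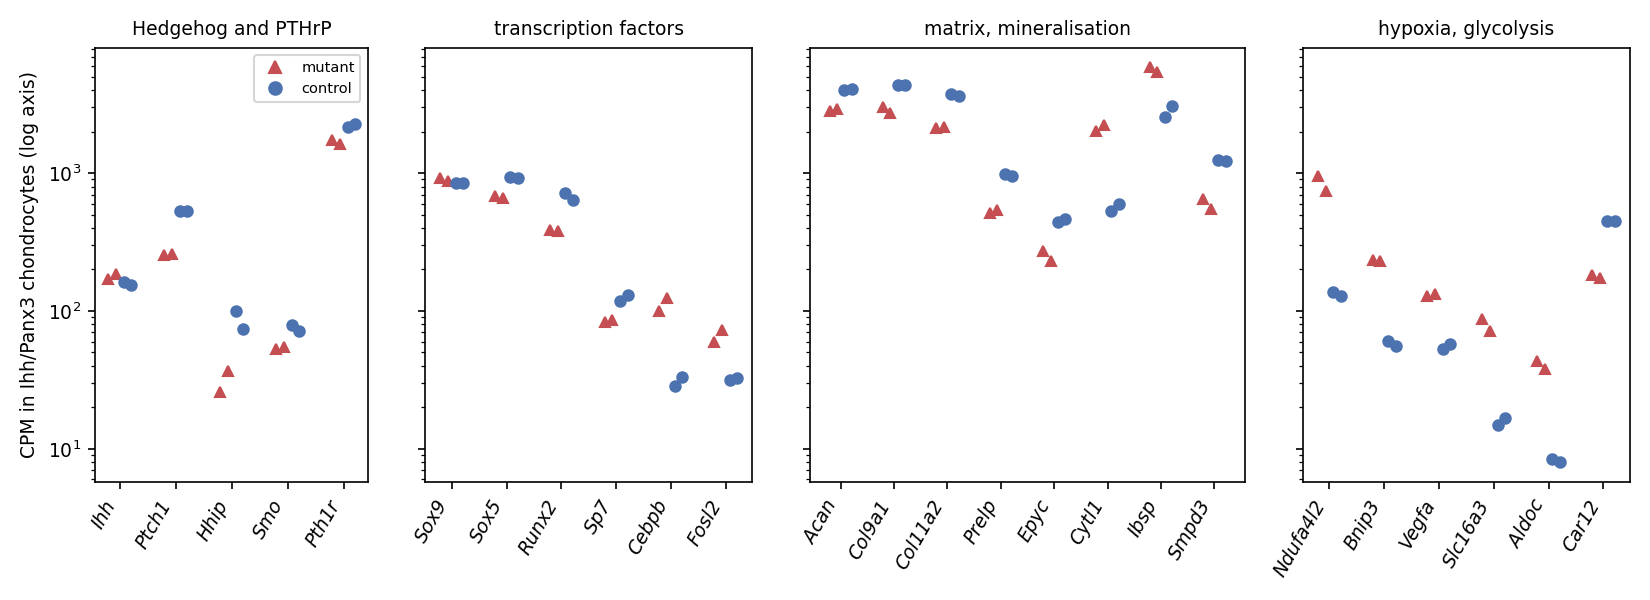
Levels in Ihh/Panx3 chondrocytes of each library (CPM, log axis) for named genes in 4 groups, with 1 point per library, mutants as red triangles and controls as blue circles. Vegfa stands in the hypoxia group but belongs to the lists of hypertrophy and of angiogenic factors. Ptch1 and Hhip lay lower and Ndufa4l2, Bnip3 and Cytl1 higher in both mutant libraries than in both controls. Ihh, which the rule used, is a description only. Its points lay close together without overlap, at 172 and 185 CPM in mutants and 162 and 154 CPM in controls.

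Among chondrocyte transcription factors, Runx2 and Sp7 were lower and Cebpb and Fosl2 higher in mutants. Runx2, a master regulator of chondrocyte hypertrophy and of osteoblasts, was at 388 and 381 CPM in mutants and 723 and 638 CPM in controls, a log2 fold change of -0.71 ± 0.07 (edgeR adjusted p = 4.91e-07). Also lower were Sp7 by -0.43 ± 0.08, Runx3 by -0.38 ± 0.06 and the cartilage factor Sox5 by -0.35 ± 0.06. Cebpb, a leucine zipper factor, rose from 28.5 and 33.0 to 99.2 and 125 CPM (1.97 ± 0.12, edgeR adjusted p = 4.30e-09) and the AP-1 member Fosl2 from 31.6 and 32.6 to 60.02 and 72.5 CPM (1.16 ± 0.11). In near-empty barcodes the means of Cebpb were 198.5 CPM in mutants and 76.9 CPM in controls, and those of Fosl2 65.1 and 32.6 CPM. Sox9, the factor that specifies chondrocytes, was at 920, 878, 844 and 847 CPM, and its log2 fold change of 0.20 ± 0.06 did not pass when library totals replaced TMM or when the first library of either genotype was left out. Of 21 tested factors of the list, 8 (38.1%, beside 20% of all tested genes) were higher and 9 (42.9%, beside 17.2%) lower, with a median log2 fold change of -0.02.

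More cartilage matrix genes were lower than higher. Without Col2a1, which the rule used, 12 of 25 tested (48%) were lower and 6 (24%) higher, against 17.2% lower and 20% higher among all tested genes, and the median log2 fold change was -0.13. The proteoglycans Prelp (518 and 539 CPM in mutants, 986 and 946 CPM in controls, -0.76 ± 0.06) and Epyc (272 and 232 against 446 and 466 CPM, -0.75 ± 0.07) and the collagen Col11a2 (2142 and 2156 against 3734 and 3626 CPM, -0.66 ± 0.05) fell. Acan, the main cartilage proteoglycan, was at 2827 and 2936 against 4014 and 4092 CPM (-0.38 ± 0.05), and Col9a1 (-0.49 ± 0.06) and Col11a1 (-0.43 ± 0.05) followed. Cytl1, a small secreted protein of cartilage, stood apart at 2027 and 2247 CPM in mutants against 532 and 594 CPM in controls (2.04 ± 0.07, edgeR adjusted p = 1.31e-11). Dcn (0.60 ± 0.06) and Matn2 (0.68 ± 0.11) were higher as well, while the rise of Cilp (1.32 ± 0.24) did not pass in DESeq2. For Cytl1 the near-empty barcodes held means of 2936 CPM in mutants and 1499 CPM in controls, above the members of both genotypes.

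Genes of hypertrophy and mineralization moved in both directions. Ibsp, the bone sialoprotein, was at 5849 and 5386 CPM in mutants and 2556 and 3057 CPM in controls, a log2 fold change of 1.11 ± 0.07 (edgeR adjusted p = 1.64e-08). Smpd3, needed for normal mineralization, was at 650 and 553 against 1251 and 1219 CPM (-0.93 ± 0.07, adjusted p = 5.98e-08), and the phosphatase Phospho1 at 19.4, 19.8, 35.3 and 38.8 CPM (-0.81 ± 0.12), not passing in members without a Col10a1 UMI. Alpl was at 826 and 880 against 1312 and 1349 CPM (-0.53 ± 0.06). Bmp6 (1.17 ± 0.20) and the collagenase Mmp13 (1.33 ± 0.39; 88.1, 77.7, 9.67 and 60.6 CPM) were higher, neither passing in DESeq2. Without Col10a1 and Panx3, which the rule used, 11 of 22 tested genes of the list (50%, beside 20% of all tested genes) were higher and 6 (27.3%, beside 17.2%) lower, with a median of 0.18. Osteoblast RNA was measured beside these genes, since a few cells with osteoblast transcripts can lift them. Bglap, Bglap2, Bglap3, Col1a1 and Col1a2 together were at 5928, 5858, 7653 and 5934 CPM, with 30.5%, 42.8%, 56.4% and 41.9% of it in the 10 highest cells, and Bglap was at 3395, 2422, 3220 and 3230 CPM (log2 fold change -0.04 ± 0.10). Bglap was higher in mutants and passed in edgeR without doublets, at 0.38 on the log2 scale, and without the second mutant library, at 0.19. Without the members at 100 or more of these UMIs per 10000, 249 genes were higher and 77 lower. The number of genes tested there is not given here, so these counts have no share beside them. They do not show how Ibsp or another gene of the list moved in those cells.

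Hypoxia and glycolysis genes rose together. Of 31 tested, 28 were higher and 1 lower in mutants, against 20% and 17.2% of all tested genes, and their median log2 fold change was 1.03 beside -0.01 over all. Ndufa4l2 (chr10:127350818-127353038, plus strand, GRCm39), a mitochondrial protein induced by hypoxia-inducible factor, was at 949 and 739 CPM in mutants and 138 and 129 CPM in controls, a log2 fold change of 2.78 ± 0.10 (edgeR adjusted p = 1.64e-11). Slc16a3, the lactate exporter MCT4, was at 87.5 and 71.0 against 15 and 16.8 CPM (2.43 ± 0.13, adjusted p = 1.46e-09). In both genes every mutant library was several times above every control. The glycolytic aldolase Aldoc was at 43.0 and 37.6 against 8.42 and 7.96 CPM (2.41 ± 0.14), Ankrd37 at 30.5 and 28.2 against 7.64 and 5.90 CPM (2.23 ± 0.16) and the mitophagy receptor Bnip3 at 234 and 232 against 60.8 and 55.6 CPM (2.11 ± 0.07). Vegfa, which attracts vessels to hypertrophic cartilage, is not among the 31 genes and was counted in the lists of hypertrophy and of angiogenic factors. It was at 128 and 133 against 52.7 and 57.2 CPM (1.36 ± 0.08, edgeR adjusted p = 4.30e-09).

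Car12, a carbonic anhydrase often placed in hypoxia signatures, went against the others, at 183 and 173 CPM in mutants and 446 and 447 CPM in controls (-1.22 ± 0.06, edgeR adjusted p = 6.34e-10). The summed level of the 37 listed genes was 8256 to 8789 CPM in mutants and 4783 to 4795 CPM in controls. Near-empty barcodes moved with these genes, with Ndufa4l2 at 536 CPM in those of mutants against 117 CPM and Bnip3 at 203 and 24.5 CPM. With free RNA subtracted, 28 genes of the list were higher, and 25 were higher in members without a Col10a1 UMI. The numbers tested and the shares over all genes under these settings are not given here, so these counts have no background beside them.

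The promoters of the 4 genes with the largest rises among those of the list that have an entry in the RefSeq promoter table are shown because hypoxia-inducible factors bind a short core, ACGTG, in many of their targets. Each window runs from 250 bases before to 50 bases after the transcription start on GRCm38.p6, 5′ to 3′ along the gene, and capitals mark ACGTG on either strand (read as CACGT on the other), with overlapping matches merged.
Slc16a3 (chr11:120948817-120949116, plus strand): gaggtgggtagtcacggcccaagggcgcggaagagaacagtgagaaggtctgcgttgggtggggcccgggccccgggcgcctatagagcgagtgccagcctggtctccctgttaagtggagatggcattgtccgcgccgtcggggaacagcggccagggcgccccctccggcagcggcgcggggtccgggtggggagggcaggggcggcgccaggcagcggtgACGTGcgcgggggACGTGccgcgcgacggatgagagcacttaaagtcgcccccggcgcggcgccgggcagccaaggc
Aldoc (chr11:78322823-78323122, plus strand): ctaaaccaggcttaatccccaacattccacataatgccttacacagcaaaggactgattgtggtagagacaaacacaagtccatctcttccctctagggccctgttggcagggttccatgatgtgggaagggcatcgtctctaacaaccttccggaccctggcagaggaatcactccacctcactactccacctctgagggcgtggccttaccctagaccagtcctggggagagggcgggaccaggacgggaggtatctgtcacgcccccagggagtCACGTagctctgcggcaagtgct
Ankrd37 (chr8:45999801-46000100, minus strand): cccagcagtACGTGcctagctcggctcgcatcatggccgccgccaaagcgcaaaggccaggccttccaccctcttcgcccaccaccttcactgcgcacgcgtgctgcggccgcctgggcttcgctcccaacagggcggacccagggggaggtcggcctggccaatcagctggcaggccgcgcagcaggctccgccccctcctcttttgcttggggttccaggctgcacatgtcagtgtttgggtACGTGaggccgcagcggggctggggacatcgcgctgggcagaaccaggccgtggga
Bnip3 (chr7:138909457-138909756, minus strand): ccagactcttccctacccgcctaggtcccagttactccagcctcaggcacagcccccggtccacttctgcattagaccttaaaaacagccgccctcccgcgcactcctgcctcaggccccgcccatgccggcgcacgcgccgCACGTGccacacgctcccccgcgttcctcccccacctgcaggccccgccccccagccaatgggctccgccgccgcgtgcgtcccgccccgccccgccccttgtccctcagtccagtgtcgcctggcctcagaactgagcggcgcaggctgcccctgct
Aldoc has a further window in the table without a match. Of 32851 windows in the table, 19.6% held the core on either strand, and of the 35 windows of 25 higher genes of the list, 19 (54.3%) did. With GCGTG counted as well, the shares were 43.8% of all windows and 80% of those of the list. Several of these windows belong to the same gene and overlap, and a match describes letters, not a bound site. The list was drawn up from hypoxia and glycolysis genes, and the windows of the whole table were not matched to it. The shares therefore describe the list and test no regulator. Ndufa4l2, Ndrg1 and Epas1 were not in the table.

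Genotype effects on part of the hypoxia list differed between Ihh/Panx3 chondrocytes and the neighbouring classes. In the edgeR interaction test against chondrocytes without Ihh and Panx3, 12 of 31 list genes differed at an adjusted p of at most 0.05, all with the higher value in the members, against 4.06% of all 7606 tested genes with the higher and 1.37% with the lower value there. Slc16a3 differed by 0.84 ± 0.17 on the log2 scale (adjusted p = 0.0172) and Ndufa4l2 by 1.03 ± 0.14 (adjusted p = 0.00226). For Car12, which is among the 12, the fall was smaller in the members, by 0.60 ± 0.09. The other 19 genes did not pass, among them P4ha1 (-0.27 ± 0.10), Kdm3a (-0.13 ± 0.16) and Pfkl (-0.02 ± 0.09) with the lower value in the members, and the median difference over the list was 0.29. Fibroblast and osteoblast markers were higher in cells without Ihh and Panx3, with values in the closing section. Their part in the differences was not tested. Against Col10a1-high chondrocytes, 22 of 33 list genes had the lower and 1, Car12, the higher value in the members, against 9.73% and 14.6% of all 7707 tested genes. Bnip3 differed by -1.29 ± 0.14 (adjusted p = 1.34e-05), and Ndufa4l2 by 0.35 ± 0.29, which did not pass. The fold changes of the list within each class had medians of 0.72 without Ihh and Panx3, 1.03 in the members and 1.93 in Col10a1-high cells, with 27 of 29, 28 of 31 and 29 of 32 tested genes higher, where 20.2%, 20% and 25.2% of all tested genes were higher.

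**Figure D5:**
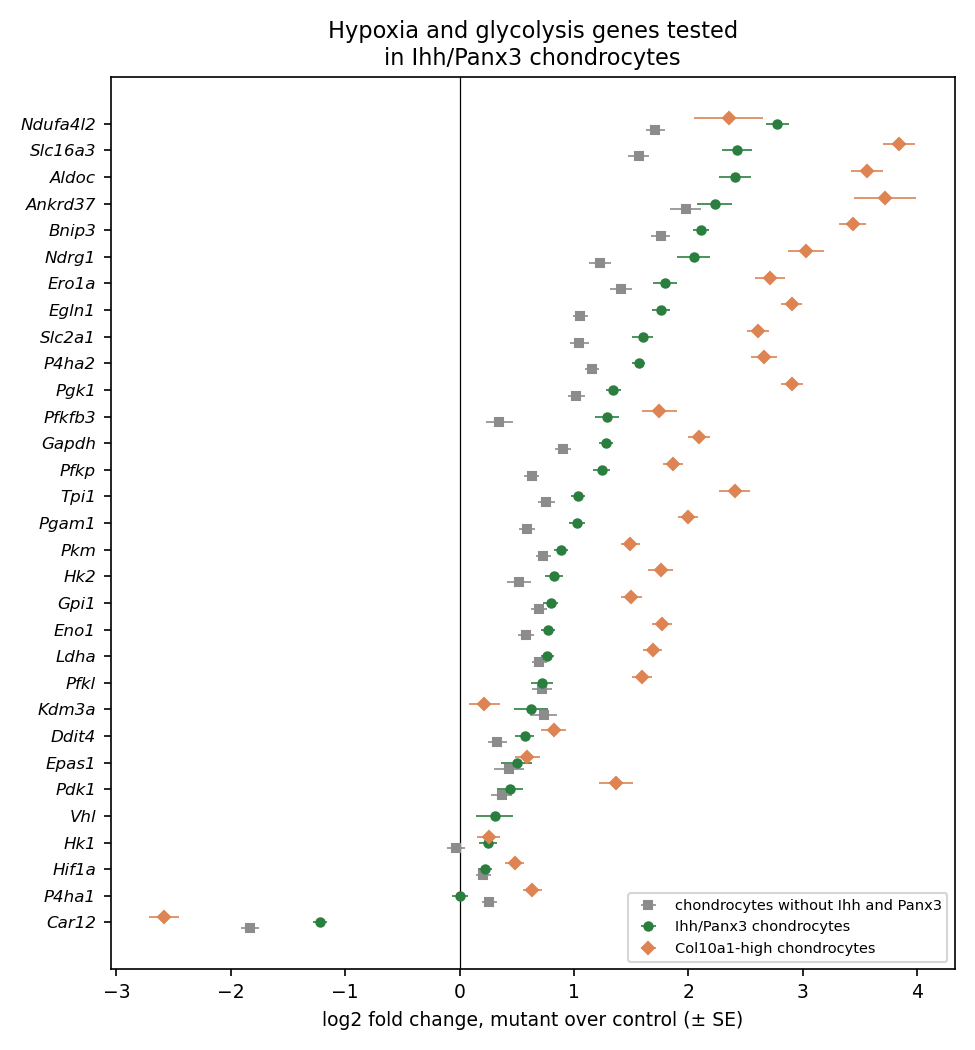
Log2 fold change (mutant over control, ± SE) of the 31 hypoxia and glycolysis genes tested in Ihh/Panx3 chondrocytes (circles), beside chondrocytes without Ihh and Panx3 (squares) and Col10a1-high chondrocytes (diamonds) where tested there. Most genes lay in the order of the 3 classes, with medians of 1.03 in the members, 0.72 and 1.93, and Car12 was below 0 in all 3 classes.

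The Col10a1-high class differed between genotypes in more than expression level. Its median cell held 9614 and 9053 UMIs in mutants and 16043 and 16833 in controls, with 0.730% and 0.850% mitochondrial UMIs against 4.19% and 4.17%, while in Ihh/Panx3 chondrocytes the UMI medians were higher and the mitochondrial medians slightly lower in mutants. In Col10a1-high cells the leukocyte markers stood at 28.1% and 27.2% of their near-empty level in mutants and at 1.85% and 1.22% in controls. The classes were also chosen by different limits, since Col10a1-high cells needed no Col2a1 minimum and no Ihh or Panx3 UMI. The part of these gaps and of the different limits in the differences between the classes was not tested. Over all genes, 1124 had the higher and 750 the lower genotype effect in the members, and without either mutant library the counts fell to 661 and 454 or 639 and 489.

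Beyond the hypoxia list, the effect of genotype differed between the classes for single genes. Cytl1 rose in the members, from a mean of 563 CPM in controls to 2137 CPM in mutants, and fell in Col10a1-high cells, from 5447 to 3430 CPM, a difference between the effects of 2.65 ± 0.15 (edgeR adjusted p = 9.19e-08). Wif1 rose in the members and was at 165 CPM in control and 136 CPM in mutant Col10a1-high cells, a difference of 2.54 ± 0.16. Tmem119, an osteoblast-lineage membrane protein, rose in both classes, from 7.19 to 41.5 CPM in the members and from 3.86 to 218 CPM in Col10a1-high cells, a difference of -3.18 ± 0.30. Cdkn1c, an inhibitor of the cell cycle that chondrocytes express on maturing, fell in the members from 333 to 200 CPM (-0.63 ± 0.06) and rose in chondrocytes without Ihh and Panx3 from 79.4 to 111 CPM, a difference of -1.20 ± 0.08 (adjusted p = 0.000117). For Cdkn1c and Cytl1 the 2 classes moved in opposite directions.

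In the BMP and TGF-beta list, 12 of 22 tested genes (54.5%, beside 20% of all tested genes) were higher and 4 (18.2%, near the 17.2% of all) lower, with a median log2 fold change of 0.27. The decoy receptor gene Bambi (98.4 and 97.7 CPM in mutants, 36.6 and 57.1 CPM in controls, 1.17 ± 0.14) and the inhibitory Smad7 (210 and 208 against 110 and 111 CPM, 1.03 ± 0.06) were higher, and the BMP antagonist Chrdl1 (143 and 118 against 244 and 230 CPM, -0.75 ± 0.08) and the coreceptor Tgfbr3 (-0.62 ± 0.07) lower. Of 18 tested Wnt genes, 6 (33.3%) were higher and 7 (38.9%) lower, both above the shares over all tested genes. The antagonists Frzb (54.1, 64.8, 26.8 and 22.5 CPM, 1.38 ± 0.12) and Notum (1.18 ± 0.14), the receptor Fzd9 (0.67 ± 0.10) and the ligand Wnt11 (0.50 ± 0.11) rose, and the agonist Rspo3 (88.6, 75.9, 182 and 169 CPM, -0.98 ± 0.08) and the ligands Wnt5a (-0.59 ± 0.13) and Wnt5b (-0.49 ± 0.06) fell.

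Fgfr3, which restrains chondrocyte growth, was at 199 and 191 CPM in mutants and 262 and 259 CPM in controls (-0.31 ± 0.06, edgeR adjusted p = 0.000562), whereas Fgfr1 (219 and 222 against 170 and 155 CPM, 0.55 ± 0.06) and Fgfr2 (0.44 ± 0.06) were higher and Etv5, a transcriptional target of FGF signaling, was at 19.1, 18.8, 7.33 and 5.75 CPM (1.65 ± 0.17). Fgfr2 and Fgfr3 did not pass in members with an Ihh UMI. The FGF list had 4 of 10 tested genes (40%) higher and 3 (30%) lower, where 20% and 17.2% of all tested genes were. In the insulin-like growth factor and growth hormone list, with 4 of 11 (36.4%) higher and 4 lower, the adaptor Irs2 (59.4 and 57.8 against 23.6 and 27.4 CPM, 1.31 ± 0.11), the feedback inhibitor Socs2 (1.11 ± 0.07) and the receptor Igf1r (0.66 ± 0.06) rose, and Irs1 (-0.38 ± 0.06) and Stat5b (-0.75 ± 0.11) fell.

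Targets of YAP1 and TAZ, the transcriptional effectors that LATS kinases restrain, were measured in these cells, in which Cre was at or near 0. Of 12 tested, 6 (50%, beside 20% of all tested genes) were higher and 2 (16.7%, near the 17.2% of all) lower. The tissue factor gene F3 was at 163 and 168 CPM in mutants and 62.2 and 67.1 CPM in controls (1.47 ± 0.07, edgeR adjusted p = 7.78e-10) and Ccn2, a matricellular protein of cartilage, at 1577 and 1638 against 890 and 916 CPM (0.94 ± 0.06, adjusted p = 4.03e-09). Gadd45b (0.94 ± 0.06) and Crim1 (0.70 ± 0.07) were also higher, and Rbms3 (-0.51 ± 0.06) lower. In the matrix remodeling list, which holds proteases, their inhibitors and receptors and enzymes of collagen processing, 14 of 24 tested genes (58.3%) were higher and 3 (12.5%, below the 17.2% of all tested genes) lower, with a median of 0.43. The aggrecanases Adamts5 (57.8 and 66.5 against 15.1 and 16.1 CPM, 2.10 ± 0.12) and Adamts1 (1.64 ± 0.12) rose, while the membrane metalloproteinase Mmp16 fell (33.2, 38.9, 74.9 and 76.1 CPM, -0.95 ± 0.10). Among channels, integrins and adhesion receptors, 5 of 13 (38.5%) were higher and 3 (23.1%) lower when Panx3, which the rule used, was left out. The mechanosensitive channel Piezo1 rose (0.84 ± 0.10) and the cation channel Trpv4 (163 and 152 against 239 and 247 CPM, -0.51 ± 0.06) and the adhesion receptor Adgrg6 (-1.16 ± 0.13) fell; Piezo1 and Trpv4 did not pass in members with an Ihh UMI.

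Early response genes, which tissue digestion also induces, were higher in mutants, 16 of 20 tested (80%, beside 20% of all tested genes) with 2 lower and a median of 0.71. Dusp1 was at 542 and 548 CPM in mutants and 239 and 281 CPM in controls (1.18 ± 0.07, edgeR adjusted p = 8.04e-09), Ier3 rose by 1.17 ± 0.07 and Nr4a1 by 1.30 ± 0.15. The inducible heat shock genes went the other way, Hspa1b from 315 and 294 to 85.2 and 85.7 CPM and Hspa1a from 464 and 460 to 203 and 241 CPM (-0.94 ± 0.07). The part of tissue handling in either movement was not tested. Of 8 tested genes of inflammation, 7 (87.5%) were higher and 1 (12.5%) lower, with a median of 0.73. Of 13 tested genes of cell death and autophagy, 10 (76.9%) were higher and none lower, with a median of 0.50. Over all tested genes these shares were 20% higher and 17.2% lower. The NF-kappaB inhibitor Nfkbia was at 393 and 433 against 162 and 194 CPM (1.32 ± 0.08). The cytokine feedback inhibitor Socs3 was at 598 and 665 against 301 and 333 CPM (1.11 ± 0.07). The cell cycle inhibitor Cdkn1a was at 256 and 269 against 91.1 and 103 CPM (1.54 ± 0.07, adjusted p = 2.84e-10), in a cell cycle list with 3 of 7 tested genes (42.9%) higher and 2 (28.6%) lower. In the list of endoplasmic reticulum stress, 8 of 21 (38.1%, beside 20% of all tested genes) were higher and 4 (19.0%, near the 17.2% of all) lower around a median of -0.00, Atf3 rising (439 and 502 against 258 and 281 CPM, 0.92 ± 0.07) and the chaperone Calr falling (-0.26 ± 0.06).

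Hemoglobin and reticular stromal genes differed between genotypes in the members, and those named here had the same order in the near-empty barcodes. The 4 tested hemoglobin genes were higher in mutants, Hbb-bs at 246 and 293 CPM against 85.8 and 78.6 CPM (log2 fold change 1.83 ± 0.08). Near-empty barcodes held means of 28330 CPM of Hbb-bs in mutants and 6341 CPM in controls. The 4 tested reticular stromal genes were lower, Cxcl12 at 78.0 and 43.9 against 205 and 180 CPM (-1.55 ± 0.16) and Hp at 22.8 and 11.1 against 51.1 and 66.3 CPM (-1.70 ± 0.21), with near-empty means of 1206 against 3084 CPM of Cxcl12 and 290 against 611 CPM of Hp. Cxcl12 and its fellow reticular gene Gas6 no longer passed with free RNA subtracted, while Hp did, and the hemoglobin genes were not tested there. Osteoblast markers summed to 5888 to 7691 CPM in the members, and none of the 4 tested passed. Near-empty barcodes held means of 5588 CPM of Bglap in mutants and 15930 CPM in controls. Of the other lists, S100a4 of the fibroblast list rose (1.94 ± 0.18), with near-empty means of 280.1 CPM in mutants against 99.0 CPM, and Fabp5 of the osteoclast and septoclast list rose (2.12 ± 0.16), with 88.8 against 33.6 CPM. Both passed with free RNA subtracted, and no endothelial, smooth muscle or leukocyte marker was high enough to be tested. Of the lists not described above, 2 of 10 tested angiogenic factors were higher and 2 lower (20% each, near the 20% and 17.2% of all tested genes). Of 9 resting and columnar zone genes, 3 (33.3%) were higher and 4 (44.4%) lower. Prg4, 1 of the higher, was at 66.8, 227, 57.1 and 77.5 CPM, overlapped between genotypes and was at a log2 fold change of -0.82 without doublets. Of 4 tested interferon and MHC genes, 2 (50%) were higher and none lower. Of 7 chondrocyte markers beside Col2a1, which the rule used, 1 (14.3%) was higher and 5 (71.4%) lower. Over all tested genes 20% were higher and 17.2% lower. The share of free RNA in the members that was subtracted was set from the endothelial list, at 3.44%, 3.35%, 4.8% and 2.67%, in cells that the rule had freed of Cdh5. Other lists gave other shares, the erythroid list 0.871% to 1.24% and the reticular list 4.60% to 8.50%. The leukocyte list gave 5.51% and 4.61% in mutants and 2.51% and 2.45% in controls. The smooth muscle list gave 2.67% to 12.9% and the fibroblast list 7.97% to 21.1%. The osteoblast list gave 10.6% to 38.2% and the osteoclast and septoclast list 29.0% to 39.7%. A list whose genes the members express themselves gives too high a share, and the subtraction was not run with these shares.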

How the data were processed

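Long bone cells of 2 Lats2iECKO mutant and 2 control mouse libraries were profiled on the 10x Genomics 3′ v3 chemistry. Per the study's methods and the submitters' processing notes, the authors trimmed reads with cutadapt 3.5, aligned them to mm39 with STARsolo 2.7.10a and shared reads that fit several genes out by expectation maximization, so the deposited values are estimated counts of UMIs, which need not be whole. No deposited annotation of cell types was used. Barcodes were filtered and the Ihh/Panx3 chondrocytes and chondrocytes without Ihh and Panx3 were chosen as the report states, with Python 3.11.15. Col10a1-high chondrocytes were chosen by the Col10a1 limit, without a Col2a1 minimum and without a need for Ihh or Panx3 UMIs. Contrasts of the members with them therefore span these limits as well as Col10a1. The cells and gene lists were chosen with earlier results of these data known. Doublets were called with the scrublet routine of scanpy 1.11.5 at 0.8% per 1000 barcodes and left out in an alternative only.

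Estimated counts of the chosen cells were summed per library, rounded and tested with edgeR 4.0.16 (quasi-likelihood, TMM, Benjamini-Hochberg adjustment) in R 4.3.3, on genes past its expression filter and with a count in at least 20% of members of either genotype. Differences of the genotype effect between classes were tested as an interaction with library as a block. DESeq2 1.42.0 was an alternative. Fits were checked on simulated counts. The 4 libraries held 69636600 to 85899079 UMIs; intervals are exact binomial and cover counting error only. Named genes were all label and hedgehog genes, up to 4 per list and direction by fold change, the 12 largest changes per direction at 50 CPM or more, and the 5 largest class differences per direction; the 15 largest ratios over each neighbouring class were named as description. Other genes named, such as Lats2 and Ddx3y, check the samples. Some genes that the rule names are not reported here. Alternatives changed the cell filters, class limits, thinning, scaling, gene filter, free RNA and libraries; subsets of members and scaling by library totals were added after the data were seen.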

Additional observations from a re-analysis of the deposited data

Results flagged for a closer look

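The effect of genotype in Ihh/Panx3 chondrocytes differed from that in neighbouring classes for the genes below, each by an edgeR interaction test on summed counts, with the difference of log2 fold changes given as members minus the other class. Against Col10a1-high chondrocytes the difference was 2.80 for Mypn, 2.78 for Adamts5, 2.65 for Cytl1, 2.54 for Wif1 and 2.48 for Chst1. It was -4.27 for A2m, -3.18 for Tmem119, -3.15 for Kirrel3 and -2.94 for Dmd. For Kirrel3 the members were at 3.87 CPM in controls and 11.7 CPM in mutants, and Col10a1-high cells at 8.61 and 246.7 CPM. For Mypn the members were at 11.7 and 11.3 CPM and Col10a1-high cells at 51.8 and 7.69 CPM. A2m was at 1.54 CPM in control Col10a1-high cells, so its ratio there rests on few counts. The lower depth and mitochondrial share of mutant Col10a1-high cells, given in the report, stand beside all these differences, and their part was not tested.

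Against chondrocytes without Ihh and Panx3 the difference was 2.54 for Rgs6, 1.95 for Rbp4, 1.85 for Bglap2, 1.85 for Tnn and 1.78 for Serpinf1. It was -1.73 for Abi3bp, -1.28 for Ogn, -1.22 for G0s2, -1.20 for Cdkn1c and -1.15 for Nrtn. Rgs6 was at 19.5 and 30.3 CPM in the members of controls and mutants and at 180 and 49.98 CPM in the other class. Abi3bp was at 28.3 and 24.5 CPM in the members and rose from 134 to 404 CPM in the other class. In that class the fibroblast markers stood at 117% to 142% of their near-empty level, against 7.97% to 21.1% in the members. Osteoblast markers stood at 31.3% to 80.4% against 10.6% to 38.2%. The part of these gaps in the differences was not tested. Bglap2 did not pass with free RNA subtracted or without the first control library, and near-empty barcodes held 3270 CPM of it in mutants and 8563 CPM in controls.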

How the results depend on the processing

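Counts of changed genes moved with thinning and with the gene filter. The counts below stand without the numbers of genes tested under each setting and cannot be read as shares. Thinned to 3000 UMIs and chosen again by the rule, which left 148, 168, 186 and 182 members, so that depth and membership changed together, 83 genes were higher and 30 lower, 59 and 43 genes of the functional lists (genes of the rule included) were, and 16 hypoxia and glycolysis genes were higher; with no gene filter, 989 were higher and 468 lower, and 1191 had the smaller effect against Col10a1-high cells. The share of filtered barcodes turned to -0.051 with Col2a1 at 100. Leaving out 1 library gave 222 to 248 genes higher and 67 to 94 lower, 121 to 139 and 56 to 71 genes of the functional lists, 24 to 28 hypoxia genes, share differences of 0.316 to 0.804, -10.5 to -9.61 and 25.0 to 27.5, and class differences of 639 to 1021 and 454 to 748 against Col10a1-high cells and 171 to 406 and 48 to 158 against cells without Ihh and Panx3. The counts of 171 and 48 came without the first control library and 158 without the first mutant library.

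The genes below changed sign, and of these values only Bglap without doublets (adjusted p = 0.00715) and without the second mutant library (0.0169), and Bglap2 in members with an Ihh UMI (0.0384) and in members low in osteoblast genes (0.0237), passed in edgeR. Gli3 was at 0.0411 in members with no Col10a1 UMI and at -0.0842 to 0.0157 with 1 library left out, and Sufu at -0.0226 in members with an Ihh UMI. Cdon was at -0.0235 with the Col10a1 limit at 10, -0.0138 in members with no Col10a1 UMI, -0.0886 under library totals, -0.000316 with no gene filter, -0.00416 with free RNA subtracted and -0.0795 to 0.142 with 1 library left out. Hdac4 was at 0.0835 with 3 Ihh and Panx3 UMIs, 0.00795 with the Col10a1 limit at 10, 0.0196 with Col2a1 at 100, 0.469 in members with an Ihh UMI and -0.0814 to 0.0511 with 1 library left out. Prg4, higher at 1.24 (adjusted p = 0.00998), was at -0.817 without doublets and -0.134 with Col2a1 at 100. In members with an Ihh UMI, Serpina1a was at 0.101, Gdf10 at 0.200, Timp3 at -0.0390, Gja1 at -0.0662 and Itgb5 at -0.110. Bglap was at 0.380 without doublets, 0.0260 with the Col10a1 limit at 10, 0.155 with free RNA subtracted and -0.306 to 0.190 with 1 library left out. Bglap2 was at -0.116 thinned, -0.453 in members with an Ihh UMI, -0.367 in members low in osteoblast genes, -0.0187 under library totals and -0.157 to 0.311 with 1 library left out. The cause was not tested. Of all comparisons of named genes with an alternative, 2861 kept direction and side of the threshold, 182 no longer passed and 31 changed sign. The complexity limit left the members unchanged, so its 159 comparisons could not differ. In members with an Ihh UMI, 110 kept both, 31 no longer passed and 8 changed sign. In DESeq2, 137 kept both and 22 no longer passed. Thinned to 3000 UMIs, 65 kept both, 20 no longer passed and 1 changed sign.

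The replicate block gave 229 genes higher and 78 lower, and same-numbered libraries correlated at -0.0506 in their deviations. With 2 libraries per genotype, this value cannot decide whether the numbers pair the libraries. With 2 libraries per genotype, shares cannot pass a permutation test.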
